A study of Oryza sativa Japonica Group with 4 samples.

Results

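The outer 2 Mb of 22 rice chromosome ends were examined for lysine crotonylation. An enriched region was assigned to an end when its midpoint lay within the first 2 Mb of a chromosome, or within 2 Mb of the last region end found on that chromosome in either list. The starts of chromosomes 11 and 12, which are known to carry near-copies of the same duplicated segment, were left out with their 416 regions. The 22 ends were thus the starts of chromosomes 1 to 10 and the last 2 Mb of all 12 chromosomes. They held 4134 of 29736 regions, of which 1734 came from the 10923 regions of the pan-Kcr list and 2400 from the 18813 regions of the H3K14cr list.

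The material was mainly leaf, with a little stem, of 2-week-old seedlings of Nipponbare, the japonica cultivar behind the rice reference genome, germinated for 72 h and then grown in water in a greenhouse. ChIP-seq, the sequencing of DNA recovered by chromatin immunoprecipitation, was done with a pan-Kcr antibody, which binds crotonylated lysine in any protein, in 2 libraries, and with an antibody against crotonylated lysine 14 of histone H3 (H3K14cr) in 2 more. No treatment, mutant or second genotype was involved, so the labels of the 2 groups differ in the antibody alone. Whether the lists also differ in depth or region calling is not known. The study asked where crotonylation lies in the genome and used H3K14cr as a second view of the pan-Kcr map. Each mark has 1 list for both of its replicates, with the chromosome, start and end of each region and no score, so the read depth is unknown and no spread between replicates can be given. Differences between ends and other parts are therefore given without a test. Their 95% intervals cover counting error only, and neighbouring regions are not independent replicates.

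Lysine crotonylation is a short-chain acyl mark that neutralises the charge of lysine, as acetylation does, and in mammals and plants it is mostly found at active promoters and gene starts. In rice, as in other grasses with small genomes, genes are denser towards the chromosome ends, while repeats and heterochromatin gather around the centromeres. The tip of the short arm of chromosome 9 carries the nucleolus organiser, the array of ribosomal RNA genes, and the short arms of chromosomes 4 and 10 are known for extensive heterochromatin. Genes were not placed on the lists here, because no source used here names the genome build behind the positions.

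Kcr was denser at the chromosome ends than elsewhere, and H3K14cr only slightly so. The 22 ends held 39.4 Kcr regions per Mb (95% exact Poisson interval 37.6 to 41.3), and the rest of the chromosomes held 27.7 per Mb (27.1 to 28.3, 8998 regions in 325 Mb). The ratio of these densities was 1.42 (exact conditional interval 1.35 to 1.50). H3K14cr had 54.5 regions per Mb at the ends (52.4 to 56.8) and 49.8 in the rest (49.1 to 50.6), a ratio of 1.09 (1.05 to 1.14). Kcr regions covered 5.60% of the bases of the ends and 3.68% of the rest, while H3K14cr covered 10.7% and 9.41%. The adjacent stretch from 2 to 4 Mb of the same 22 arms lay between these levels for Kcr, with 32.5 regions per Mb (30.8 to 34.2). It is itself counted as part of the rest. Against that stretch the ends were 1.21 times as dense in Kcr (1.13 to 1.30) and 1.06 times in H3K14cr (1.00 to 1.13). Kcr made up 41.9% of all regions at the ends (Wilson interval 40.4 to 43.5%), 38.8% in the adjacent stretch (37.2 to 40.3%) and 35.7% in the rest (35.1 to 36.3%).

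Most of the Kcr gradient lay in the outermost steps. In 200 kb steps from the chromosome end inwards, the 22 ends together held 281, 204, 177, 162 and 175 Kcr regions in the outer 1 Mb and 151, 156, 136, 147 and 145 in the inner 1 Mb. The first step had 63.9 Kcr regions per Mb (56.6 to 71.8), the second 46.4 and the tenth 33.0. The count per step thus dropped most over the first 3 steps and changed little beyond 1 Mb. From 2 to 4 Mb the 10 further steps held between 129 and 157 Kcr regions, which is 29.3 to 35.7 per Mb and still above the mean of the rest, 27.7. The outermost step was 1.74 times as dense as the mean of the other 9 steps (1.53 to 1.98) and 2.31 times as dense as the rest of the chromosomes (2.04 to 2.60).

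H3K14cr had its highest count in the first step and then no clear slope. Its counts were 288, 242, 231, 211 and 258 in the outer 1 Mb and 238, 229, 228, 223 and 252 in the inner 1 Mb. The outermost step was 1.23 times as dense as the mean of the other 9 (1.08 to 1.39). This ratio was 1.29 (1.09 to 1.51) at the last ends, whose first step begins with a region by construction, and 1.15 at the starts, where the interval (0.940 to 1.39) includes 1. The outer 1 Mb held 1230 regions and the inner 1 Mb 1170, a ratio of 1.05 whose interval (0.970 to 1.14) includes 1. For Kcr these stretches held 999 and 735 regions, a ratio of 1.36 (1.23 to 1.50). Both lists therefore reached almost the same number of regions in the outermost 200 kb, where Kcr made up 49.4% of all regions (45.3 to 53.5%). Cut more finely, the first 200 kb held 72, 69, 76 and 64 Kcr regions in successive pieces of 50 kb and 76, 65, 79 and 68 H3K14cr regions. No decline was visible within this first step for either mark.

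**Figure D1:**
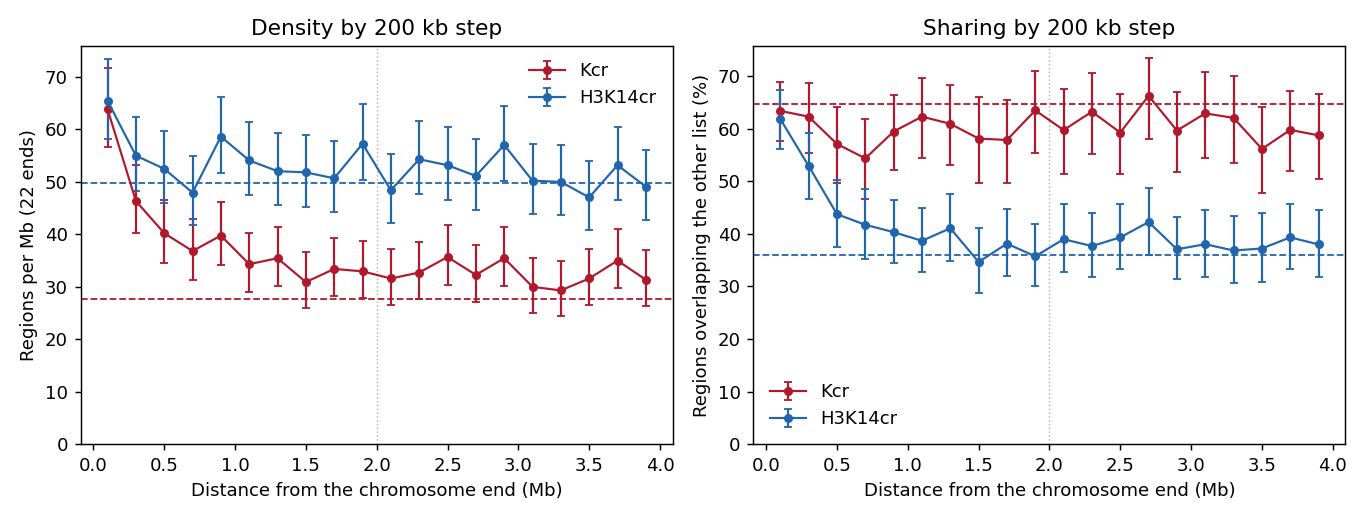
Left, regions per Mb over the 22 ends in 200 kb steps up to 4 Mb from the chromosome end (bars: exact 95% Poisson intervals); right, the percentage of regions that overlap the other list (bars: 95% Wilson intervals). Dashed lines give the rest of the chromosomes and the dotted line marks 2 Mb; Kcr density drops from 63.9 to 33.0 regions per Mb over the 10 steps, and the shared percentage of H3K14cr from 61.8% to 35.7%.

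A typical chromosome end was unusual for Kcr when set beside windows of the same size inside the chromosomes. The end with the median count held 78.5 Kcr regions in 2 Mb, and 14 of 155 full windows of 2 Mb in the rest, or 9.03%, held at least as many. For H3K14cr the median end held 111 regions, which 44 of the 155 windows, or 28.4%, reached. In single 200 kb windows the contrast was larger for Kcr. The median outermost step held 13 Kcr regions, a number reached by 27 of 1620 windows in the rest (1.67%), where the median was 5. The median outermost step of H3K14cr held 13.5 regions, which 277 of 1620 windows (17.1%) reached, against a median of 10. Dense windows thus exist inside the chromosomes too, with up to 114 Kcr regions in 2 Mb and up to 16 in 200 kb.

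Seen one at a time, 21 of the 22 ends had more Kcr regions per Mb than the rest of their own chromosome, and 15 of them had an interval of that ratio above 1. The exception was the start of chromosome 9. For H3K14cr 17 ends were above the rest of their chromosome and 4 had an interval above 1, namely the last 2 Mb of chromosomes 4, 5, 7 and 8. No end of either mark had an interval below 1. Density ran from 23.0 to 57.0 Kcr regions per Mb (median 39.3) and from 41.0 to 64.0 H3K14cr regions per Mb (median 55.5) across the ends. Over the 22 ends the densities of the marks went together (Spearman's rho 0.71), as a description only, since the tissue, the positions and the processing are shared. Over the 220 single steps rho was 0.55.

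**Figure D2:**
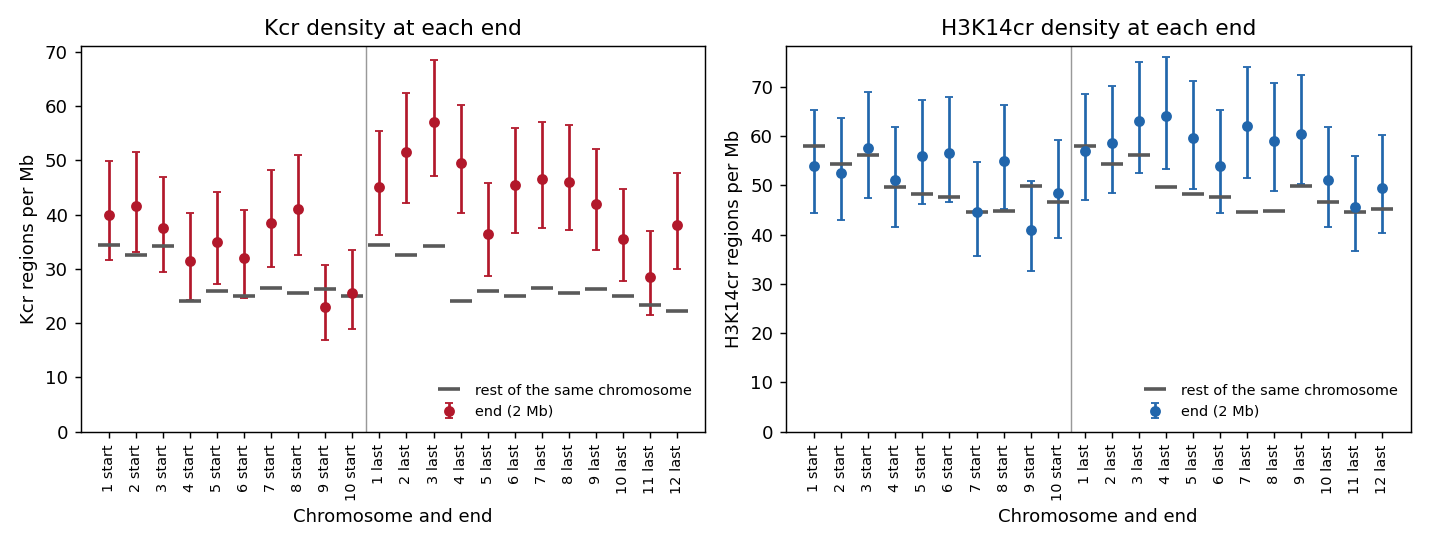
Regions per Mb in the outer 2 Mb of each end (points, with exact 95% Poisson intervals) and in the rest of the same chromosome (grey bars), for Kcr on the left and H3K14cr on the right; the vertical line separates chromosome starts from the last 2 Mb. For Kcr 21 of 22 points lie above their grey bar, the start of chromosome 9 being the exception.

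Among the 22 ends, the last 2 Mb were richer in Kcr than the first 2 Mb. The 12 last ends held 43.5 Kcr regions per Mb (40.9 to 46.2) and the 10 starts 34.6 (32.0 to 37.2), a ratio of 1.26 (1.14 to 1.39). On all 10 chromosomes with both ends counted, the last 2 Mb had the higher Kcr count, and on 9 of them the higher H3K14cr count. The omitted starts of chromosomes 11 and 12 went the other way, with 191 Kcr regions in 4 Mb, or 47.75 per Mb (41.2 to 55.0), while their last 2 Mb held 28.5 and 38 per Mb. Without the starts of chromosomes 9 and 10 the Kcr ratio was 1.17 (1.06 to 1.30). H3K14cr had 57.0 regions per Mb at the last ends and 51.7 at the starts, a ratio of 1.10 (1.02 to 1.197). Without the starts of chromosomes 9 and 10 it was 1.07 (0.979 to 1.16), an interval that includes 1. The gradient of Kcr was found on both sides, since its outer 1 Mb exceeded its inner 1 Mb by a factor of 1.47 at the starts (1.26 to 1.71) and 1.29 at the last ends (1.14 to 1.46).

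Chromosomes 1 to 3 are the longest and have the highest Kcr density in the rest of the chromosome. On chromosome 1 the start held 80 Kcr regions, 56 of them in the outer 1 Mb and 24 in the inner 1 Mb, and this ratio of 2.33 (1.42 to 3.94) was the steepest of the 22 ends. Its last 2 Mb held 90, with 22 of them in the outermost 200 kb between 43050444 and 43250443. That was the highest Kcr count of the 220 steps, and it stood above the 19 H3K14cr regions of the same step. Step by step from the end inwards the Kcr counts of the last 2 Mb of chromosome 1 were 22, 8, 10, 8, 13, 8, 9, 7, 3 and 2. H3K14cr, with 108 regions at the start and 114 at the last end, was at 54.0 and 57.0 per Mb no higher at the ends of chromosome 1 than in its rest (57.9).

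On chromosome 2 the start held 83 Kcr regions and the last end 103, against 32.5 per Mb in the rest, which corresponds to ratios of 1.28 (1.01 to 1.60) and 1.58 (1.28 to 1.94). At the start 16 of the 83 lay in the first 200 kb and at most 10 in each later step. Chromosome 3 had the richest end in Kcr, its last, with 114 regions or 57.0 per Mb (47.0 to 68.5), 1.66 times its rest. Its first 7 steps held 13, 11, 14, 15, 12, 11 and 12 Kcr regions, and its last 3 steps 5, 10 and 11. Its Kcr share of all regions, 47.5% (41.3 to 53.8%), was the highest of the 22 ends. At its start chromosome 3 held 75 Kcr regions, a density of 37.5 per Mb that was 1.09 times its rest (0.854 to 1.38).

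For Kcr, chromosome 4 had the largest contrast between an end and the rest of a chromosome. Its last 2 Mb held 99 Kcr and 128 H3K14cr regions, which is 2.06 (1.65 to 2.54) and 1.29 (1.07 to 1.54) times the density of the rest. The rest of chromosome 4 had 24.1 Kcr regions per Mb, among the lower values of the 12 chromosomes. Chromosomes 11 and 12 had 23.3 and 22.3 per Mb in their rest. Any part of the heterochromatic short arm of chromosome 4 in its value was not tested. The H3K14cr density of the last 2 Mb of chromosome 4, 64.0 per Mb (53.4 to 76.1), was the highest of the 22 ends. At its start this chromosome held 63 Kcr regions, or 31.5 per Mb, in the uneven series 7, 13, 7, 8, 3, 11, 3, 4, 2 and 5. Its first step also had only 4 H3K14cr regions, and the first region of either list began at 41119.

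At 3 of the 4 ends of chromosomes 5 and 6 the outermost step was not the highest for Kcr. The last 2 Mb of chromosome 5 held 5 Kcr and 3 H3K14cr regions in the outermost 200 kb and then 16 and 17 in the next. There the list ends in a Kcr region at 29907338 to 29908374 that ends 147 kb beyond the end of the last H3K14cr region, so the count starts from a sparse stretch. At the start of chromosome 5 there were 70 Kcr regions, with 10, 13 and 10 in its first 3 steps. At that of chromosome 6 there were 64, with 6, 9, 9 and 10 in its first 4 steps, so that the highest count lay inward of the first step. The share of its H3K14cr regions that met Kcr, 35 of 113 or 31.0% (23.2 to 40.01%), was the lowest of the 22 ends. Its last end had 91 Kcr regions and a second crowded stretch, since 15 lay in the first step and 15 each in the seventh and eighth. This was 1 of 2 ends with fewer Kcr regions in the outer 1 Mb (43) than in the inner 1 Mb (48), the other being the start of chromosome 10.

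On chromosomes 7 and 8 Kcr was denser at both ends than in the rest of the chromosome. Chromosome 7 held 77 Kcr regions at its start, with 18 in the first 200 kb, and 93 at its last end, with 13 there. Relative to the rest of chromosome 7 these were ratios of 1.45 (1.13 to 1.84) and 1.75 (1.40 to 2.18). The last end also had the highest H3K14cr density relative to its own chromosome, with 124 regions and a ratio of 1.39 (1.15 to 1.68), while the start, with 89, was level with the rest (0.999, 0.796 to 1.24). At the start of chromosome 8 both marks declined inwards. Its Kcr counts were 17, 13, 8, 9, 8, 4, 7, 4, 6 and 6 and its H3K14cr counts 18, 17, 14, 9, 13, 11, 11, 8, 5 and 4. This was the clearest H3K14cr gradient of the 22 ends, with an outer to inner ratio of 1.82 (1.21 to 2.76) and a rank correlation of count with step of -0.92. At the last end of chromosome 8 there were 92 Kcr and 118 H3K14cr regions, or 1.80 and 1.32 times the density of the rest.

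The last ends of chromosomes 9 to 12 held 84, 71, 57 and 76 Kcr regions. The outermost step of chromosome 9 held 17 Kcr and 20 H3K14cr regions, the latter being the highest H3K14cr count of the 220 steps (22739991 to 22939990). On chromosome 10 the last end had 13 and 10 Kcr regions in its first 2 steps and between 3 and 9 in the later ones. That of chromosome 11 was the poorest of the 12 last ends in both marks, with 28.5 Kcr regions per Mb (21.6 to 36.9) and 45.5 H3K14cr regions per Mb (36.6 to 55.9). Its Kcr density was 1.22 times that of the rest, with an interval that includes 1 (0.914 to 1.61). On chromosome 12 the last end began with 11 and 13 Kcr regions and then had 5 and 2. That low stretch contained the longest gap between neighbouring Kcr regions at any of the 22 ends, 224 kb between 26798382 and 27021950. H3K14cr had a gap of 194 kb at nearly the same place, between 26807278 and 27000999. The longest H3K14cr gap, 208 kb, lay at the start of chromosome 7 between 1246514 and 1454956, beside a Kcr gap of 212 kb from 1316692 to 1528657.

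**Figure D3:**
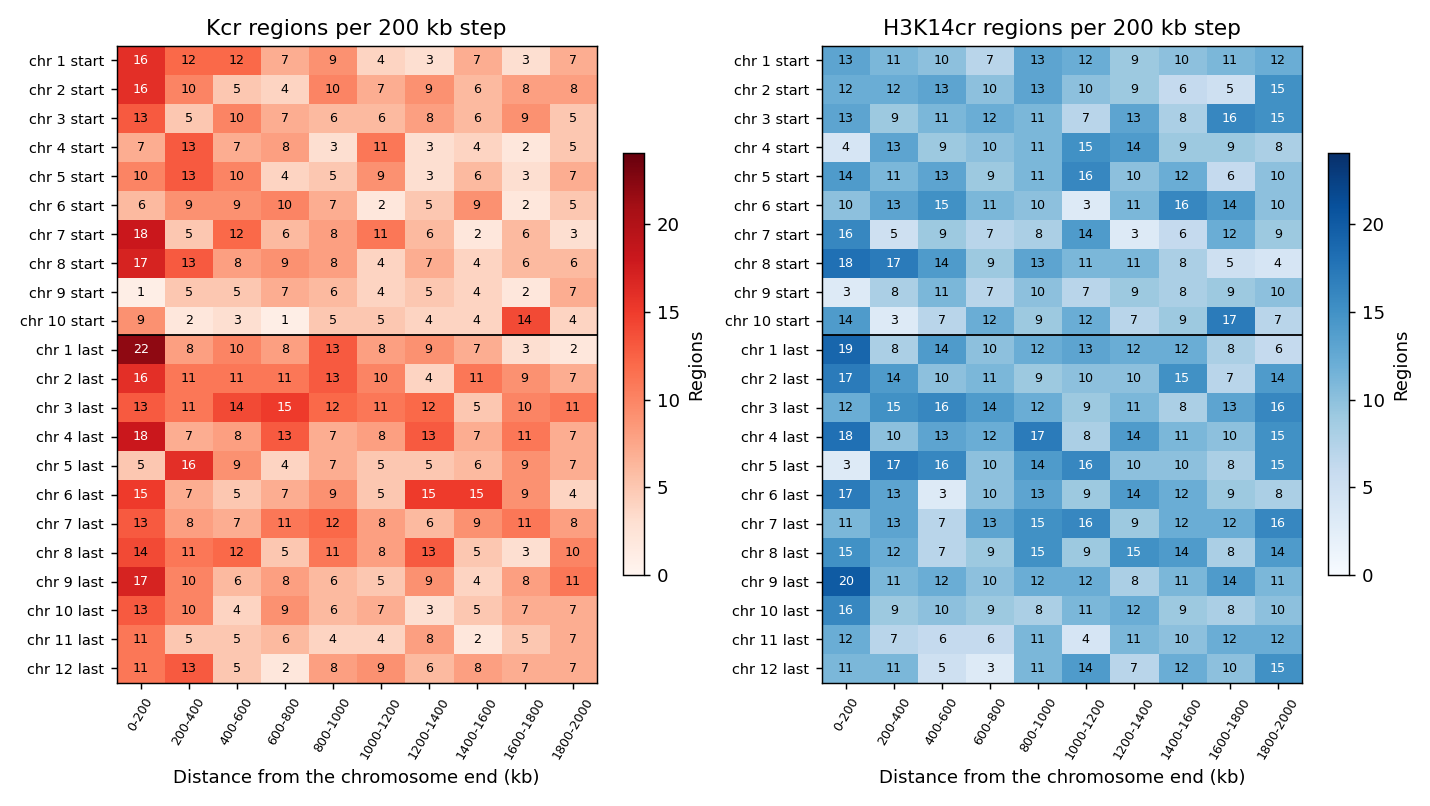
Number of Kcr regions (left) and H3K14cr regions (right) in each 200 kb step of each of the 22 ends; rows are ends, with starts above the line and last 2 Mb below it, and columns give the distance from the chromosome end in kb. The outermost Kcr column holds between 1 region (start of chromosome 9) and 22 (last end of chromosome 1), and it is the highest column or tied in 14 of 22 rows.

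The outermost step was the highest of the 10 steps, or tied with another, in 14 of 22 ends for Kcr and in 11 for H3K14cr. The outer 1 Mb held more Kcr regions than the inner 1 Mb in 20 ends and fewer in 2. For H3K14cr 13 ends had more, 8 had fewer and 1 was equal. In 8 of the 22 outermost steps Kcr regions outnumbered H3K14cr regions and in 3 the numbers were equal, against 25 and 20 of the 198 other steps. These ends share a genome-wide list, so the counts describe the pattern and are not independent repeats of it.

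The starts of chromosomes 9 and 10 did not follow the pattern of the other 8 starts. Together they held 97 Kcr regions, or 0.593 times the density of the other 20 ends (0.478 to 0.728), and 179 H3K14cr regions, or 0.806 times (0.688 to 0.939). Those 20 ends include the 12 last ends, which were denser than the starts. The other 8 starts held 37.1 Kcr and 53.4 H3K14cr regions per Mb. They held between 63 and 83 Kcr regions and between 89 and 115 H3K14cr regions each. The start of chromosome 9 held 46 Kcr regions, 23.0 per Mb (16.8 to 30.7), which was 0.873 times the rest of the chromosome (0.631 to 1.18). It held 82 H3K14cr regions, 41.0 per Mb (32.6 to 50.9), the lowest count of the 22 ends for both marks. Chromosome 10 held 51 Kcr regions at its start, 25.5 per Mb (19.0 to 33.5), beside 25 per Mb in its rest. It held 97 H3K14cr regions, 48.5 per Mb (39.3 to 59.2), against 46.6 in its rest.

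Step by step, the start of chromosome 9 had Kcr counts of 1, 5, 5, 7, 6, 4, 5, 4, 2 and 7 and H3K14cr counts of 3, 8, 11, 7, 10, 7, 9, 8, 9 and 10. Its first 200 kb was thus nearly empty. The first H3K14cr region lay at 37619 to 41559 and had no Kcr partner, the next began at 144733, and the first Kcr region lay at 144850 to 145708. After the first step the Kcr counts lay between 2 and 7, where the other 8 starts had medians of 11 in the second step and 5.5 in the tenth. From 200 kb inwards both marks lay within the range of the other 8 starts, with Kcr at its lower edge from 200 to 600 kb, so the first step was the only one below that range.

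On chromosome 10 the start had a filled first step, a sparse stretch and then a cluster. Its Kcr counts were 9, 2, 3, 1, 5, 5, 4, 4, 14 and 4 and its H3K14cr counts 14, 3, 7, 12, 9, 12, 7, 9, 17 and 7. Between 200 and 800 kb it held 6 Kcr regions, fewer in each step than any of the other 8 starts, which had at least 5, 5 and 4. H3K14cr was also below the other 8 starts from 200 to 600 kb, with 3 and 7 regions against at least 5 and 9, but the step from 600 to 800 kb had 12 H3K14cr regions beside 1 Kcr region. A Kcr gap of 221 kb, the second longest of the 22 ends, ran from 568558 to 789398. The step from 1600 to 1800 kb held 14 Kcr and 17 H3K14cr regions, above the highest of the other 8 starts for both marks (9 and 16), and 12 regions of each list were shared there. All 9 Kcr regions of the first 200 kb overlapped an H3K14cr region.

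**Figure D4:**
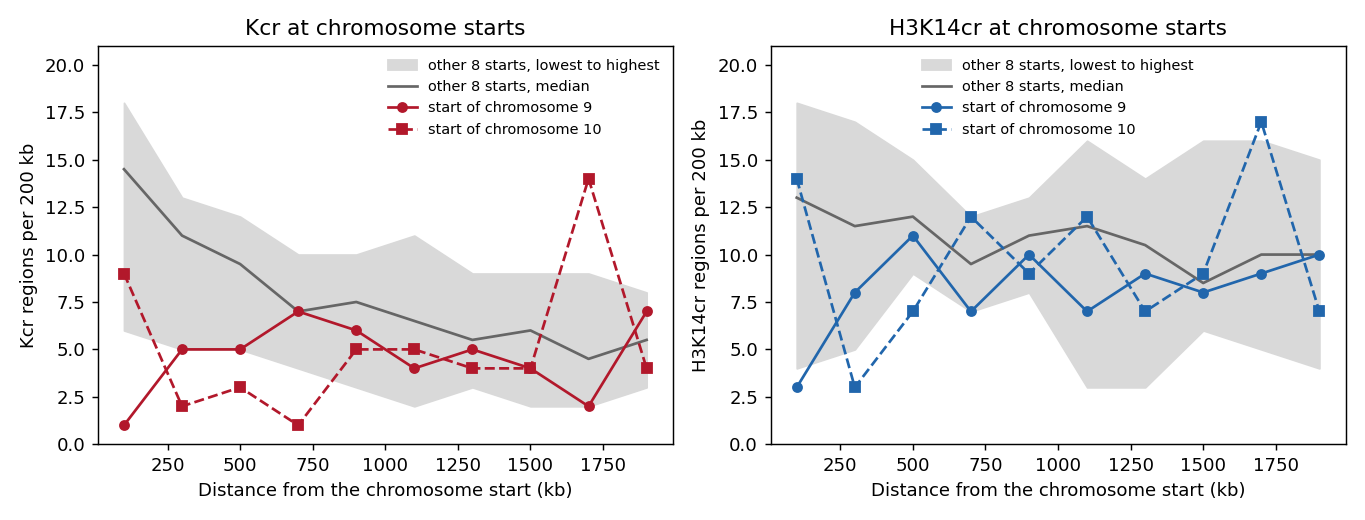
Regions per 200 kb step at the starts of chromosome 9 (circles) and 10 (squares) against distance from the chromosome start in kb, for Kcr (left) and H3K14cr (right); the grey line is the median and the grey band the range of the other 8 starts. In the first step the other starts have 6 to 18 Kcr regions, chromosome 9 has 1 and chromosome 10 has 9, and chromosome 10 rises to 14 between 1600 and 1800 kb.

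Kcr regions at these 2 starts were few but mostly shared. There 75 of 97 Kcr regions, or 77.3% (68.0 to 84.5%), overlapped an H3K14cr region, against 968 of 1637, or 59.1% (56.7 to 61.5%), at the other 20 ends, a difference of 18.2 percentage points (8.61 to 25.8). Chromosome 10, with 80.4% (67.5 to 89.0%), and chromosome 9, with 73.9% (59.7 to 84.4%), had the 2 highest shares of all ends. The rest of these chromosomes had Kcr shares of 67.9% and 64.9%, which lie inside those intervals. H3K14cr regions at the 2 starts were shared in 41.9% (34.9 to 49.2%), close to the 43.4% of the other 20 ends. Widths were on the low side, with a Kcr median of 1147 bp (1090 to 1294 bp) and an H3K14cr median of 1496 bp (1422 to 1597 bp). The other 20 ends had medians of 1271 and 1726 bp. The Kcr interval includes 1271 bp, so only the H3K14cr difference exceeded counting error. Regions with Kcr alone numbered 22 at the 2 starts, or 5.5 per Mb, against 16.7 per Mb at the other 20 ends. Shared Kcr regions were nearer in density, at 18.75 per Mb and 24.2 per Mb.

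Over the 22 ends, sharing moved in opposite directions in the 2 lists. A region was counted as shared when it overlapped the other list by at least 1 bp, which held for 63.9% of all Kcr and 37.1% of all H3K14cr regions. At the ends 1043 Kcr regions were shared, or 60.1% (57.8 to 62.4%), against 64.7% in the rest, a difference of -4.58 percentage points (Newcombe interval -7.10 to -2.09). Of the H3K14cr regions 1039 were shared, or 43.3% (41.3 to 45.3%), which was 7.31 points above the 36.0% of the rest (5.20 to 9.43). At 17 of 22 ends the Kcr share lay below that of the rest of the chromosome, and at 20 of 22 the H3K14cr share lay above it. In the adjacent stretch from 2 to 4 Mb the Kcr share was 60.7% (58.1 to 63.2%), which is within counting error of that at the ends. At the starts alone the Kcr difference was -2.35 points, with an interval that includes 0 (-6.15 to 1.32). When both lists were cut to their wider 50%, the Kcr difference was 0.66 points in the other direction (-2.75 to 4.10). Sharing was then counted against the wider H3K14cr regions only. Against the whole H3K14cr list, Kcr regions over 1514 bp, the widest of 4 classes, were shared in 74.0% at the ends and 80.3% in the rest.

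The H3K14cr share declined steeply over the outer steps. It was 61.8% (56.1 to 67.2%) in the outermost 200 kb, 52.9% in the second step, 43.7% in the third and 41.7% in the fourth, and between 34.6% and 41.0% from the fifth to the tenth step. The Kcr share had no such slope and lay between 54.3% and 63.4% in the 10 steps. In the outermost step equal numbers, 178 of 281 Kcr and 178 of 288 H3K14cr regions, were shared, so that the lists were nearly the same size and overlapped to the same degree. The outermost H3K14cr share was 25.8 points above that of the rest (20.04 to 31.3). Kcr density moved with it, at 63.9 regions per Mb in the first step and 33.0 in the tenth. Its part in the H3K14cr share was not tested.

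Across single ends the H3K14cr share ran from 31.0% at the start of chromosome 6 to 53.7% (44.3 to 62.8%) at the last end of chromosome 6, where 58 of 108 H3K14cr regions met Kcr. It was higher at ends denser in Kcr (Spearman's rho 0.68 over the 22 ends), and the Kcr share was lower at such ends (rho -0.43). Both are descriptions without a test, because density and share come from the same lists. Lowest among the Kcr shares was 50.9% (41.8 to 59.9%) at the last end of chromosome 3, the end with the most Kcr regions. Next to it was the last end of chromosome 2, at 51.5% (41.9 to 60.9%). Those 2 ends together held 106 Kcr regions outside H3K14cr.

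Regions of both lists were wider at the ends than in the rest, by less against the adjacent stretch. The median Kcr width was 1269 bp (order-statistic interval 1240 to 1293 bp) at the ends and 1195 bp (1187 to 1204 bp) in the rest, a difference of 73.5 bp (43.6 to 99.3). For H3K14cr the medians were 1704 bp (1671 to 1735 bp) and 1614 bp (1600 to 1628 bp), a difference of 90.5 bp (54.5 to 124). Against the adjacent 2 to 4 Mb the differences were 41.5 bp for Kcr (4.24 to 78.7) and 39.5 bp for H3K14cr, the latter with an interval that includes 0 (-13.5 to 92.1). In the wider 50% of the H3K14cr list the difference from the rest was 13 bp (-49.2 to 63.2). Regions wider than 2000 bp made up 12.9% of Kcr regions at the ends (11.4 to 14.6%), where the share in the whole list was 9.41%. They made up 36.9% of H3K14cr regions (35.0 to 38.8%), against 33.8% of the whole list. In the adjacent stretch these shares were 11.4% and 36.5%. The ends exceeded it by 1.52 points for Kcr (-0.785 to 3.79) and 0.415 for H3K14cr (-2.35 to 3.18), intervals that include 0. The Kcr width declined inwards, from a median of 1319 bp in the first step to 1173 bp in the ninth and 1248 bp in the tenth. H3K14cr medians stayed between 1620 and 1752 bp in all 10 steps. The widening lay mainly at the last ends, where the medians exceeded those of the rest by 102 bp (66.8 to 140) in the Kcr list and by 138.5 bp (77.7 to 195) in the H3K14cr list, and at the starts the differences of 25 and 33.5 bp had intervals that include 0.

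Median widths varied between single ends. The median Kcr width was above that of the rest of the chromosome at 16 of 22 ends. It ran from 1095 bp (963 to 1293 bp) at the start of chromosome 9 to 1459 bp (1248 to 1622 bp) at the start of chromosome 3. These Kcr intervals overlap. The median H3K14cr width was above that of the rest at 15 ends. It ran from 1426 bp (1301 to 1697 bp) at the start of chromosome 9 to 1943 bp (1742 to 2145 bp) at the last end of chromosome 11. The last end of chromosome 11 combined the highest H3K14cr median width with a low H3K14cr density and a low H3K14cr share of 34.1% (25.2 to 44.3%).

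At the ends, Kcr regions had a median width of 1363 bp when shared and 1162 bp when alone, and H3K14cr regions 1600 bp when shared and 1768 bp when alone. Each list was also divided by width into 4 classes of equal size, with sharing counted against the whole other list. The Kcr share was then lower at the ends in every class. Among Kcr regions up to 1019 bp wide, the narrowest class, 41.7% (36.6 to 47.0%) were shared at the ends and 47.2% (45.2 to 49.3%) in the rest. In the next class the shares were 56.0% (51.2 to 60.7%) and 61.9% (59.9 to 63.9%). The intervals overlap in each of these classes. Among Kcr regions over 1514 bp, the widest class, the shares were 74.0% (70.1 to 77.5%) and 80.3% (78.6 to 82.0%). For H3K14cr each class had the higher share at the ends, with 49.0% against 44.1% in the narrowest class (up to 1202 bp) and 38.9% against 29.8% in the widest (over 2297 bp). In the outermost 200 kb these H3K14cr shares were 73.6% (62.4 to 82.4%) and 54.8% (44.1 to 65.0%). The Kcr shares there were 52.4% (37.7 to 66.6%) in the narrowest class and 71.0% (61.5 to 79.0%) in the widest. For Kcr the narrowest class thus lay above the rest in the outermost 200 kb, and the other classes lay below it. Only in the widest class did the interval leave out the value of the rest, 80.3%.

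**Figure D5:**
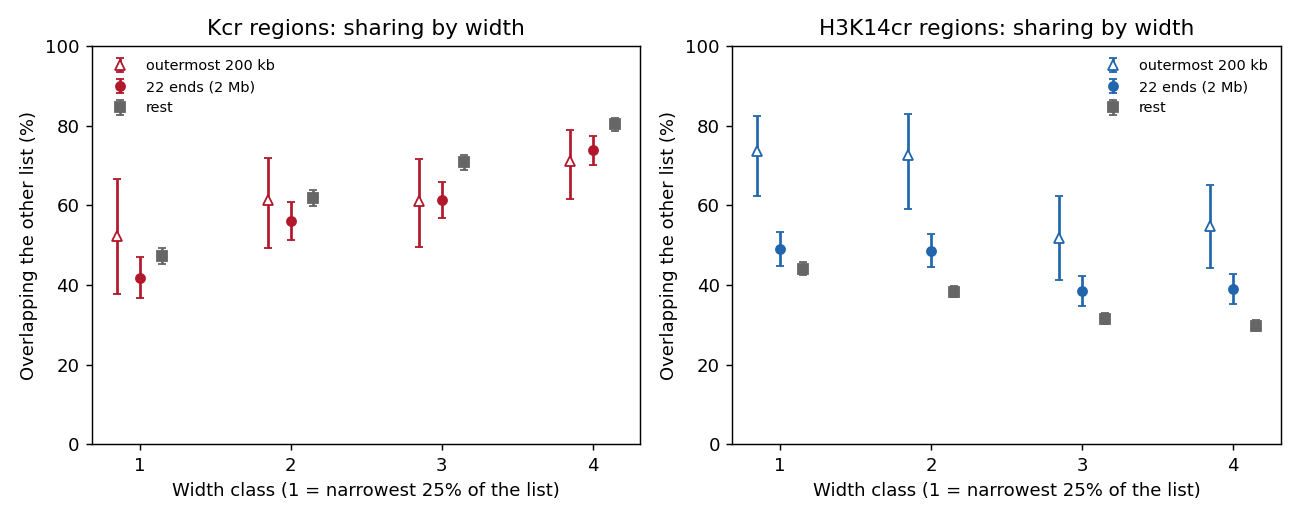
Percentage of regions that overlap the other list in each of 4 width classes of equal size (1 is the narrowest), for Kcr (left) and H3K14cr (right), in the outermost 200 kb (open triangles), in the 22 ends of 2 Mb (filled circles) and in the rest (grey squares); bars are 95% Wilson intervals. In all 4 classes the 22 ends lie below the rest for Kcr and above it for H3K14cr.

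Where the marks overlapped, pairs with matching borders were as frequent at the ends as elsewhere within counting error. Nesting of Kcr was less frequent than in the rest, but within counting error of the adjacent stretch. Of 1047 overlapping pairs at the ends, 264 or 25.2% (22.7 to 27.9%) had both borders within 100 bp of each other, as had 24.8% in the rest. Nesting of Kcr within its H3K14cr partner was found in 35.2% of pairs (32.4 to 38.2%), against 40.5% in the rest (39.3 to 41.8%). The reverse, an H3K14cr region inside a Kcr region, was found in 16.7% (14.6 to 19.1%), against 14.6% (13.7 to 15.5%). The remaining pairs at the ends, 48.04%, were staggered, as were 44.8% in the rest. The median ratio of H3K14cr to Kcr width in a pair was 1.09 at the ends and 1.10 in the rest.

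H3K14cr regions without a partner lay nearer to the other mark at the ends than elsewhere. The 1361 H3K14cr regions without Kcr lay at a median distance of 8078 bp from the nearest Kcr region (7591 to 8645 bp), against 11848 bp in the rest. In the outermost step this distance was 3163 bp (2479 to 4334 bp), and 19.1% of the 110 regions there had Kcr within 1 kb, against 5.19% in the rest. The 691 Kcr regions without H3K14cr lay 5161 bp from the nearest H3K14cr region (4746 to 5745 bp), close to the 5483 bp of the rest (5210 to 5667 bp). Neighbouring Kcr regions were separated by a median of 14927 bp at the ends, 8596 bp in the outermost step and 20490 bp in the rest. For H3K14cr these gaps were 10588, 7797 and 11805 bp.

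The lists reached close to the chromosome starts. The first Kcr region began within 20 kb of the start on 5 of 10 chromosomes and the first H3K14cr region on 4, the nearest being 2626 and 2745 on chromosome 1, where the 2 regions overlapped. The region nearest to the chromosome end was shared at 16 of 22 ends for Kcr and 13 for H3K14cr. In the whole outermost step 63.3% of Kcr and 61.8% of H3K14cr regions were shared, and in the whole lists 63.9% and 37.1%. The last regions of chromosome 8 matched closely, with Kcr at 28408114 to 28409239 and H3K14cr at 28408061 to 28409204. At the last end of chromosome 2, in contrast, the final Kcr region at 35932406 to 35933257 ended 51.0 kb beyond the end of the last H3K14cr region.

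The widest shared Kcr regions at the ends lay on chromosomes 5 and 7. At the start of chromosome 5, Kcr spanned 1155928 to 1160468 (4540 bp) and enclosed an H3K14cr region at 1157465 to 1160365 (2900 bp). At the last end of chromosome 7, Kcr at 29115420 to 29119777 (4357 bp) overlapped H3K14cr at 29115750 to 29122494 by 4027 bp. Further out on the same end, Kcr at 29382746 to 29387048 (4302 bp) overlapped H3K14cr at 29382692 to 29385379 by 2633 bp.

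Among regions carrying 1 mark alone, the top widths were larger for H3K14cr than for Kcr. With Kcr alone they were 921860 to 925495 at the start of chromosome 1 (3635 bp), 31025959 to 31029255 at the last end of chromosome 6 (3296 bp) and 34429412 to 34432678 at the last end of chromosome 3 (3266 bp). With H3K14cr alone they were 31168846 to 31175261 at the last end of chromosome 6 (6415 bp), 921057 to 927430 at the start of chromosome 4 (6373 bp) and 144818 to 151103 at the start of chromosome 5 (6285 bp). The last end of chromosome 6 thus held a region of each kind. Absence from a list cannot be told apart from a signal below its threshold.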

How the data were processed

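The submitters' processing notes name Bowtie as the aligner of the 4 libraries. Not given in the sources used here are its version, the caller of the regions and its threshold, the build, and how the mock sample (normal rabbit serum) was used. The authors deposited 1 list of region positions per mark (start and end in bp), which the labels name for both replicates. Whether regions were called on pooled reads or had to be found in each replicate is not stated, so a missing region may mean either no call or a call in 1 replicate. The lists hold no counts or scores, so regions could not be filtered by strength and depth is unknown.

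Positions are printed as deposited and width is end minus start. A chromosome's end was taken as the last region end in either list, so the first step inwards from a last end always begins with a region, whereas starts were measured from position 0. The rest excludes the outer 2 Mb of all 12 chromosomes. Sharing was counted against the whole other list. Intervals at 95% were exact Poisson for densities, exact conditional binomial for ratios, Wilson and Newcombe for shares and order statistics for medians (Python 3.11.15, SciPy 1.17.1, pandas 2.3.3). Differences of medians combined their 2 intervals. The density ratio and the Kcr shared percentage were checked on simulated lists. The overlap search was checked against a comparison of every pair of regions in a part of the lists. The other calculations were not checked in this way.

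The ends were chosen, and the measures planned, with earlier results of these data known. Regions named are the 3 widest shared, the 3 widest of each mark alone, the longest gaps and the extreme steps and ends; further regions and ends were named after their values were seen. The gene table at hand belongs to another assembly and was not used.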

Additional observations from a re-analysis of the deposited data

How the results depend on the processing

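No paired analysis was possible because the labels give 1 list for the replicates of a mark, and no replicate could be left out either. Of 233 values under 26 alternatives for 11 results, 209 stayed inside the interval of the reported value, 23 moved outside it and 1 reversed. All 132 values with 1 chromosome left out stayed inside. The Kcr shared difference, ends minus rest, reversed to 0.66 percentage points in the wider 50% of each list, where the H3K14cr list was cut too. Against the adjacent 2 to 4 Mb it was -0.55. The cause of these changes was not tested. The Kcr density ratio was 1.25 for starts only, 1.57 for the last 2 Mb only, 1.21 against the adjacent stretch, 1.61 for ends of 1 Mb, 1.52 in covered bases and 1.64 in the wider 50%. The H3K14cr density ratio was 1.04 for starts only, 1.14 for the last 2 Mb only and 1.204 in the wider 50%. The outer to inner ratio of Kcr was 1.57 in the wider 50%. The H3K14cr shared difference was 4.84 points against the adjacent stretch and 12.5 for ends of 1 Mb. The Kcr share of all regions exceeded the rest by 4.36 points for starts only, 3.19 against the adjacent stretch and 8.83 for ends of 1 Mb. The width difference of Kcr was 25 bp for starts only, 102 bp for the last 2 Mb only and 41.5 bp against the adjacent stretch. That of H3K14cr was 33.5, 138.5 and 39.5 bp under these settings and 13 bp in the wider 50%; of these, the intervals for starts only (both marks), the adjacent stretch (H3K14cr) and the wider 50% include 0. With 100 kb steps the H3K14cr outermost ratio was 1.19 (0.993 to 1.41). The unknown depth limits every statement on regions of 1 mark alone.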
